A study of Mus musculus with 36 samples.

Results

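Npas4, a transcription factor that neurons switch on with activity, was followed together with 4 relatives, Arnt, Arnt2, Npas1 and Npas3, in cultured mouse cortical neurons (CNs). The 5 genes were chosen by name from the 26709 genes of the RNA table, with earlier results of these data known. All 5 were among the 16209 genes with a mean of at least 10 normalised counts that were tested. The neurons came from cortices of CD-1 embryos at embryonic day 15 and were kept for 7 days in vitro. Silencers were given to every culture, controls included, 2 h ahead of a stimulus: 100 µM AP-5 against NMDA receptors and 1 µM TTX against sodium channels. The stimulus was either 10 ng/ml BDNF, a neurotrophin whose receptor is TrkB, or depolarisation of the membrane by 55 mM KCl. It lasted 1, 6 or 10 h, and controls were left in the silencers for as long. The time in silencers is recorded as 3, 8 and 12 h for controls but as 2 h for every stimulated culture. Where silencer time differed, its effect cannot be told apart from that of the stimulus. RNA-seq and ATAC-seq, which measures open chromatin, were each done on 18 libraries, 2 for each of the 9 groups of stimulus and time. The 2 libraries of a group are called A and B. The study calls A and B biological replicates. The labels say that tissue of all embryos was combined before plating, and no source used here says whether A and B were separate cultures, so the p-values measure the spread between these libraries.

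Npas4 belongs to the basic helix-loop-helix PAS family, whose members bind DNA as pairs. Arnt and Arnt2 are the general partners in such pairs, and Arnt2 is the partner best known in neurons. Npas4 is an immediate early gene known for its induction by calcium entry, and its targets include Bdnf and genes of inhibitory and excitatory synapses. Npas1 and Npas3 also pair with Arnt proteins; Npas1 is known from GABAergic neurons and Npas3 from progenitors, astrocytes and the developing cortex.

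The libraries held 8508452 to 36699187 reads in genes for RNA and 1241829 to 6236439 reads in peaks for ATAC. The lowest ATAC depth, 1241829, was that of library B at 6 h of KCl, which limits the peak values of that group. The 6 neuron markers Tubb3, Map2, Rbfox3, Syn1, Syn2 and Mapt were present in every control library, with a summed level of 60982 to 67945 normalised counts. Glial and dividing cells were present too, since markers of astrocytes and radial glia summed to 11841 to 15118 and those of dividing cells to 3352 to 5730 normalised counts in controls. The RNA libraries A and B at 6 h of KCl stood apart from each other, with a chi-square per degree of freedom of 36.4 where the other 8 pairs were at 2.33 to 9.77. In such bulk samples, fewer cells of a type and less RNA per cell cannot be told apart.

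The sequences below carry the regulatory elements that the results return to. They come from the GRCm38.p6 assembly, whose coordinates are those of mm10, with starts as RefSeq gives them. Capitals mark the core of a cAMP response element (CRE), TGACG on either strand, and TGANTCA, with any base as N. TGANTCA is a loose form of the AP-1 site, which has C or G as N in its usual form for Fos and Jun proteins. The Npas4 stretch, chr19:4990129-4990158 on the minus strand, is shown because it holds both CRE cores of the 250 bases before the RefSeq start, 179 and 169 bases before it. All 30 bases lie inside the GENCODE gene span, in an exon of Npas4 annotated as UTR, since GENCODE places the start further upstream. Distances of peaks are from the GENCODE start. The Arnt stretch, chr3:95434140-95434239 on the plus strand, is shown because it holds a full CRE, TGACGTCA, 239 bases before the start, within which 2 cores overlap, and a further core 214 bases before it. The other 4 lie within ATAC peaks, read on the plus strand: the central 300 bases of the peak upstream of Npas4 (chr19:4992935-4993234) and 3 whole peaks in introns of Arnt2 (chr7:84403467-84403718, chr7:84380922-84381144 and chr7:84390005-84390174), chosen because accessibility changed there. All 3 Arnt2 peaks were gained at some time of BDNF, so their labels below only tell them apart.
Npas4 promoter: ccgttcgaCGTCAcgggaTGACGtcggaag
Arnt promoter: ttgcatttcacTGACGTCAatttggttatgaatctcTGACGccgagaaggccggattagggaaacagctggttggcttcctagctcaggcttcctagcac
Npas4 upstream peak: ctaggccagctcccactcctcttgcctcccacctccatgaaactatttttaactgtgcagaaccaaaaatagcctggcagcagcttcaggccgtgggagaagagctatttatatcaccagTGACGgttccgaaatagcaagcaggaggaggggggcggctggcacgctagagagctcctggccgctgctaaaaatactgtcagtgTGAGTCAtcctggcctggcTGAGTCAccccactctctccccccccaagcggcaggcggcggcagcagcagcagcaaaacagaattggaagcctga
Arnt2 intron peak nearest the start: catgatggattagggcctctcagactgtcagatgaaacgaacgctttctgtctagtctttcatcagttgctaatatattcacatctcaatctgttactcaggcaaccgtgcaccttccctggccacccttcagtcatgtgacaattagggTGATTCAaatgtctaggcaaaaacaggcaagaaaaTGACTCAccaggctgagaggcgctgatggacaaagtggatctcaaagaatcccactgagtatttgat
Arnt2 intron peak with BDNF gain: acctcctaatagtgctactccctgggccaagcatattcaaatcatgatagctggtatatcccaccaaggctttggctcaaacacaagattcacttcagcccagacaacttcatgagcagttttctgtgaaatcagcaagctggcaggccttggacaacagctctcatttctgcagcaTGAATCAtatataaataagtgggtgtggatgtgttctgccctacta
Arnt2 intron peak gained at 6 h: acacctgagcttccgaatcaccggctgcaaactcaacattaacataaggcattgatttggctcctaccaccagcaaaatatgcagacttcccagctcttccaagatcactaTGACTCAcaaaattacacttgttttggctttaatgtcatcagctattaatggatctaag

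Of all 32851 RefSeq promoters, 1.55% held the full CRE and 17.8% held TGACG within the 250 bases before the start, and 6.75% held TGANTCA there. The E-box-like cores TCGTG and ACGTG were also searched on both strands. The Npas1 promoter held a TCGTG 183 bases before its start and the Npas3 promoter an ACGTG 105 bases before its start, which 13.3% and 16.6% of promoters held, and the Arnt2 promoter held none of these letters. Of the peaks at least 300 bases long, 12.9% held TGANTCA in their central 300 bases. Such matches describe letters, not binding.

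The question put to the RNA was how Npas4 and the genes for its partners responded to BDNF and to membrane depolarisation, which were each compared with all 6 control libraries. At 1 h of BDNF, Npas4 and Npas1 rose and none of the 5 genes fell (limma, adjusted p below 0.1), where 40.4% of all tested genes changed, 21.3% upwards. At 6 h of BDNF, Arnt, Arnt2 and Npas3 fell, where 43.3% of genes changed and 21.1% fell, and the same 3 genes were lower at 10 h, where 40.6% changed and 19.5% fell. With KCl, Npas4, Arnt2 and Npas1 rose and Arnt fell at 1 h, where 54.7% of genes changed, 26.5% upwards and 28.2% downwards. Npas4 and Arnt rose and Npas3 fell at 6 h of KCl, where 66.5% of genes changed, 33.4% upwards and 33.1% downwards. Npas4, Arnt and Arnt2 were higher and Npas3 lower at 10 h of KCl, where 57.2% changed, 29% upwards and 28.2% downwards. Beside shares this wide a count over 5 genes says little, and the sizes and directions below carry more.

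**Figure D1:**
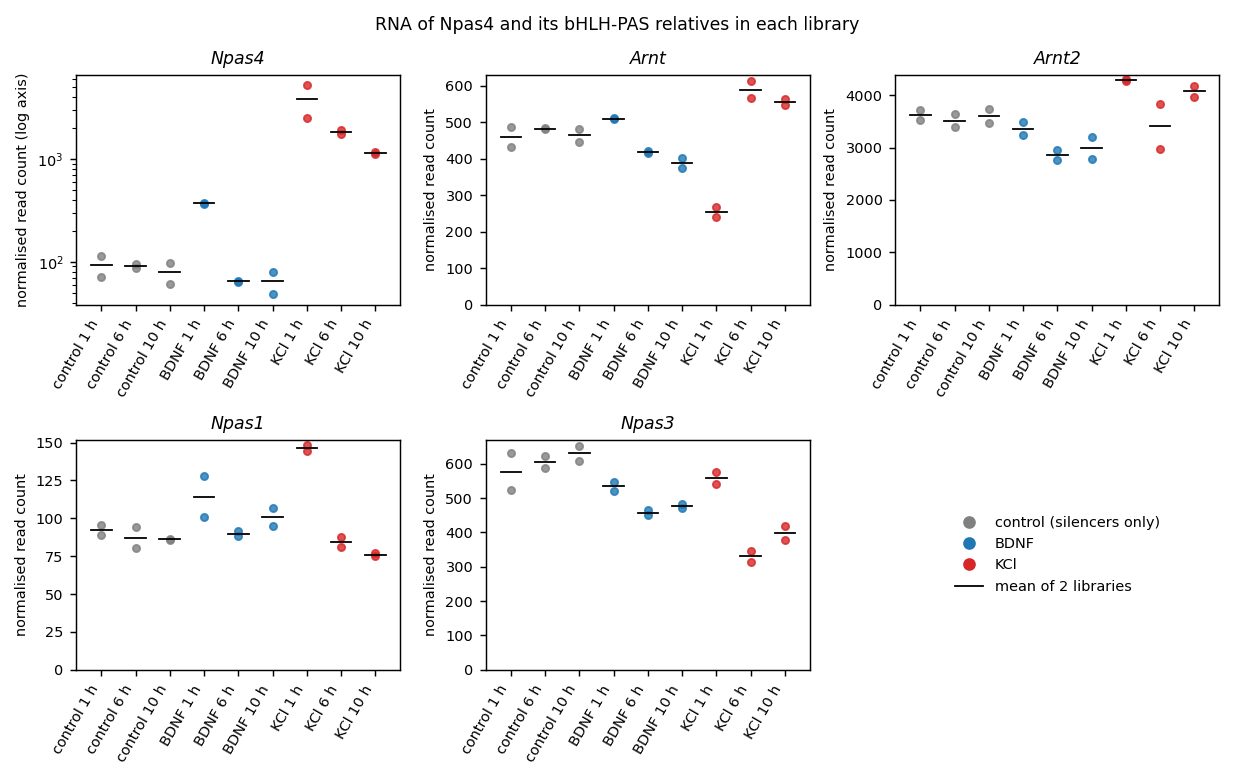
Normalised counts of the 5 genes in each of the 18 RNA libraries, with 1 panel per gene, a point per library and a bar at the group mean; the vertical axis is a log scale for Npas4 and starts at 0 for the other 4. Npas4 with KCl lies between 1132 and 5258, above every control library (60.1 to 114), and Arnt drops below its controls at 1 h of KCl.

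Npas4 (ENSMUSG00000045903, chr19:4984355-4990316, minus strand, mm10) changed the most. Its normalised counts, which are reads divided by 1 size factor per library, lay between 60.1 and 114 in the 6 controls (median 90.5). With BDNF they were 362 and 377 at 1 h, 64.0 and 65.0 after 6 h, and 80.2 and 48.4 after 10 h. BDNF raised Npas4 above every control at 1 h and not at the later times, when its values overlapped with the controls. With KCl they were 5258 and 2487 at 1 h, 1908 and 1735 after 6 h, and 1182 and 1132 after 10 h. All 6 KCl libraries lay above all other libraries, and those at 10 h were still above those at 1 h of BDNF.

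Against controls of 87.2 ± 19.2 (SD, n = 6), Npas4 was at 369 ± 10.7 (n = 2) at 1 h of BDNF, a log2 fold change of 2.10 ± 0.27 (SE; limma, adjusted p = 5.256e-05). At 6 h and 10 h of BDNF the log2 fold changes of Npas4 were -0.40 and -0.45, which did not pass the test (limma, adjusted p = 0.2825 and 0.2345). With KCl at 1 h the fold was 41.9, a log2 fold change of 5.39 with a 95% interval from 4.80 to 5.98 (limma, adjusted p = 2.666e-09). At 6 h and 10 h of KCl Npas4 was 21.1 and 13.4 times the controls, or 4.40 and 3.74 on the log2 scale (limma, adjusted p = 1.426e-08 and 1.436e-07). Among the 16209 genes, Npas4 ranked 101 from the top at 1 h of BDNF, and 7, 14 and 20 at 1, 6 and 10 h of KCl. Library A at 1 h of KCl held 2.11 times the Npas4 of library B.

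Compared directly, Npas4 was lower with BDNF than with KCl by a log2 difference of -3.29 at 1 h, -4.80 at 6 h and -4.19 at 10 h (limma, adjusted p = 4.77e-06, 8.265e-08 and 6.243e-07). At 6 h, 1 of the 16209 genes lay further below KCl. Over time, Npas4 fell by 2.50 on the log2 scale between 1 h and 6 h of BDNF (limma, adjusted p = 0.0001118). Between 1 h and 6 h of KCl the difference was -0.99 (limma, adjusted p = 0.02439), but -0.45 without library A at 1 h (adjusted p = 0.23) and -0.92 without library B at 6 h (adjusted p = 0.114), neither of which passed. From 6 h to 10 h of KCl it was -0.65 (limma, adjusted p = 0.2158), which passed when KCl 1 h library A (adjusted p = 0.0796) or B (adjusted p = 0.0808) was left out. With each library left out in turn, Npas4 at 6 h of KCl stayed between 4.30 and 4.48 against controls and remained called.

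**Figure D2:**
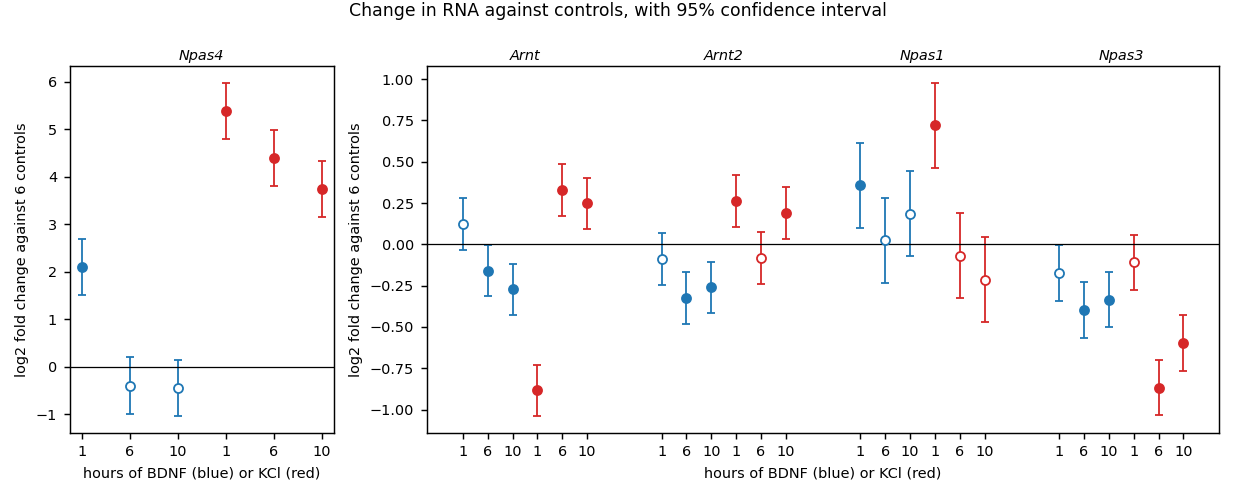
Log2 fold changes of the 5 genes against the 6 controls (vertical axes, of different range for Npas4) after 1, 6 and 10 h of BDNF (blue) and KCl (red), with 95% confidence intervals as bars, filled where called and open where not. Npas4 stands at 5.39, 4.40 and 3.74 with KCl and at 2.10, -0.40 and -0.45 with BDNF, and Arnt crosses from -0.88 to 0.33 between 1 h and 6 h of KCl.

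Arnt (ENSMUSG00000015522, chr3:95434388-95497240, plus strand), which encodes a partner shared by many PAS proteins, moved in opposite directions early and late in KCl. In controls it lay between 433.1 and 487 normalised counts, with a mean of 469 ± 23.1 (n = 6). At 1 h of KCl it was 268 and 239.5, and at 6 h and 10 h it was 565, 612, 548 and 565. The early libraries lay below all controls and the late ones above all controls. The log2 fold change was -0.88 ± 0.07 (SE) at 1 h, 0.33 at 6 h and 0.25 at 10 h (limma, adjusted p = 2.342e-09, 0.0006362 and 0.00837). Between 1 h and 6 h of KCl, Arnt rose by 1.21 on the log2 scale (limma, adjusted p = 6.509e-10). With each library left out in turn, the value at 6 h stayed between 0.27 and 0.39 and remained called. The 5 markers of the oligodendrocyte lineage summed to 4199 to 4739 normalised counts at 1 h of KCl and 6862 to 7242 at 6 h, against 5713 to 6194 in controls. Of them, 3 were lower at 1 h, 2 were higher and 2 lower at 6 h, and 4 rose from 1 h to 6 h. Of all genes, 28.2% fell at 1 h, 33.4% rose and 33.1% fell at 6 h, and 30.9% rose from 1 h to 6 h. The part of these markers in the Arnt values was not tested.

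With BDNF, Arnt was 511 and 509 at 1 h, 417 and 421 after 6 h, and 374 and 401 after 10 h. Its libraries were just above the controls at 1 h and below all of them later, with log2 fold changes of 0.12, -0.16 and -0.27 (limma, adjusted p = 0.2209, 0.09999 and 0.007716). The call at 6 h sat at the threshold and was lost under many alternatives, and without library A of its group the value at 10 h did not pass (-0.22, adjusted p = 0.118). Compared directly, Arnt was higher with BDNF than with KCl at 1 h by 1.01 on the log2 scale (limma, adjusted p = 1.411e-08) and lower at 6 h and 10 h by log2 differences of -0.49 and -0.52 (limma, adjusted p = 0.000122 and 0.000109). These comparisons, and those of every gene here, share the 6 controls.

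Arnt2 (ENSMUSG00000015709, chr7:84246278-84410176, minus strand), the neuronal partner of Npas4, stayed between -0.33 and 0.26 on the log2 scale in all 6 comparisons. In controls it lay between 3394 and 3728 normalised counts, with a mean of 3579 ± 140.3 (n = 6). With BDNF it was 3239 and 3484 at 1 h, 2948 and 2760.3 after 6 h, and 3195 and 2789 after 10 h. The log2 fold changes with BDNF were -0.09, -0.33 and -0.26 (limma, adjusted p = 0.3919, 0.001817 and 0.01134), so that both later times were lower, although without library B the call at 10 h was lost (-0.16, adjusted p = 0.277). With KCl it was 4263 and 4318 at 1 h, 3829 and 2981 after 6 h, and 4180.2 and 3975 after 10 h. It was above all controls at 1 h and 10 h of KCl and spread around them at 6 h.

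For Arnt2 the log2 fold changes with KCl were 0.26, -0.08 and 0.19 (limma, adjusted p = 0.006457, 0.3577 and 0.04195). The value at 6 h rests on which library is kept: it was -0.26 without library A (adjusted p = 0.00599) and 0.10 without library B (adjusted p = 0.299). At 10 h the call was lost without library A (0.15, adjusted p = 0.247) and against the 10 h controls alone (0.18, adjusted p = 0.158). Arnt2 was lower with BDNF than with KCl at every time, by -0.35, -0.24 and -0.45 on the log2 scale (limma, adjusted p = 0.004505, 0.03232 and 0.0005763). At 6 h that difference was -0.06 without library A of KCl (adjusted p = 0.573) and -0.20 without library B of BDNF (adjusted p = 0.187), neither of which passed. Arnt2 shares exon sequence with the antisense gene Gm30873, and Npas3 with the antisense gene 1700060O08Rik, and the sources do not state whether reads were counted by strand.

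Npas1 (ENSMUSG00000001988, chr7:16455721-16477728, minus strand), a repressor known from GABAergic neurons, was highest at 1 h. In controls it lay between 80.3 and 95.6 normalised counts, with a mean of 88.5 ± 5.72 (n = 6). At 1 h it was 128 and 101 with BDNF and 148 and 144 with KCl, above all controls. At 6 h and 10 h the BDNF libraries held 88.3, 91.5, 94.9 and 107 and the KCl libraries 87.5, 81.0, 77.0 and 75.1. The rise at 1 h was 0.36 ± 0.12 (SE) on the log2 scale with BDNF and 0.72 ± 0.12 with KCl (limma, adjusted p = 0.03045 and 5.172e-05). With BDNF it did not pass without library A (0.19, adjusted p = 0.485), with DESeq2 (adjusted p = 0.129) or against the 1 h controls alone (adjusted p = 0.212).

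Between 1 h and 6 h of KCl, Npas1 fell by 0.79 on the log2 scale (limma, adjusted p = 0.0001621). At the later times its log2 fold changes against controls lay between -0.21 and 0.19, and none passed. Npas1 was lower with BDNF than with KCl at 1 h by a log2 difference of -0.36 (limma, adjusted p = 0.06684) and higher at 10 h by 0.40 (limma, adjusted p = 0.04271), and both calls were lost when single libraries of those groups were left out (at 1 h BDNF B or either KCl library, adjusted p up to 0.466; at 10 h BDNF B or KCl B, adjusted p up to 0.23). With DESeq2 on all libraries, neither of these differences passed (adjusted p = 0.1333 at 1 h and 0.1286 at 10 h). The 5 GABAergic markers Gad1, Gad2, Slc32a1, Dlx1 and Dlx2 summed to 10398 to 12186 normalised counts in controls, 14182 to 14712 at 1 h of BDNF and 12752 to 14374 at 1 h of KCl. They summed to 13800 to 15379 at 6 h of KCl, with 4 of them higher and 1 lower, when Npas1 was back among the controls. There 33.4% of all genes rose and 33.1% fell. The part of these markers in the Npas1 values was not tested.

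Npas3 (ENSMUSG00000021010, chr12:53248677-54072175, plus strand) fell with both stimuli at the later times. In controls it lay between 524 and 653 normalised counts, with a mean of 604 ± 44.8 (n = 6). At 1 h it was 522 and 548 with BDNF and 542 and 576 with KCl, overlapping or just below the controls. At 6 h it was 449.5 and 466 with BDNF and 346 and 315 with KCl. At 10 h it was 472 and 483 with BDNF and 419 and 378 with KCl. All 8 of these later libraries lay below all controls.

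For Npas3 the log2 fold changes were -0.17, -0.40 and -0.33 with BDNF (limma, adjusted p = 0.1066, 0.0005562 and 0.003028) and -0.11, -0.87 and -0.60 with KCl (limma, adjusted p = 0.2817, 7.427e-09 and 2.763e-06), each ± 0.08 (SE). It was higher with BDNF than with KCl by 0.47 at 6 h and 0.26 at 10 h on the log2 scale (limma, adjusted p = 0.0004226 and 0.0406), and the call at 10 h was lost without BDNF library B (adjusted p = 0.15) or KCl library B (adjusted p = 0.262). With each library left out in turn, Npas3 at 6 h of KCl stayed between -0.93 and -0.80 and remained called. Some marker sums fell with it, those of neurons included, and others rose. The 5 markers of astrocytes and radial glia summed to 9790 to 10950 normalised counts at 6 h of KCl, with all 5 of them lower, and to 11615 to 11822 at 6 h of BDNF, with all 5 lower, against 11841 to 15118 in controls. Mki67 and Top2a, which mark dividing cells, summed to 2328 to 2400 at 6 h of KCl and 2908 to 3188 at 6 h of BDNF, against 3352 to 5730. The 6 neuron markers summed to 53326 to 62682 at 6 h of KCl and 56372 to 58711 at 6 h of BDNF, with 3 of them lower in each, against 60982 to 67945. Other sums rose. Excitatory markers summed to 5526 to 5576 at 6 h of KCl and 5258 to 5281 at 6 h of BDNF, against 4184 to 4772. GABAergic markers summed to 13800 to 15379 and 12622 to 13791, against 10398 to 12186. Of these 5 markers, 4 were higher and 1 lower at 6 h of KCl, and 3 were higher and none lower at 6 h of BDNF. Oligodendrocyte markers summed to 6862 to 7242 at 6 h of KCl but 5457 to 5549 at 6 h of BDNF, against 5713 to 6194. The part of any of these cells in the Npas3 values was not tested.

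The direct comparison of BDNF with KCl called 4 of the 5 genes at 1 h and at 6 h and all 5 at 10 h, where 42.8%, 57.3% and 45% of all genes were called. Of all genes, 24.6%, 29.6% and 23.1% were higher with BDNF at 1, 6 and 10 h and 18.2%, 27.8% and 21.8% were lower. Over time, Npas4, Arnt, Arnt2 and Npas3 fell between 1 h and 6 h of BDNF, where 33.6% of genes changed, 15.8% upwards and 17.7% downwards. Of these, the falls of Arnt, Arnt2 and Npas3 did not pass when single libraries of those groups were left out (adjusted p up to 0.111, 0.316 and 0.339). The fall of Npas3 also did not pass with DESeq2 (adjusted p = 0.1466). Nor did it pass with limma under TMM scaling (adjusted p = 0.1145) or without the filter on low values (adjusted p = 0.1535). None of the 5 changed from 6 h to 10 h of BDNF, where 0.074% of genes rose and 0.142% fell, 0.216% in all. With KCl, Arnt rose and the other 4 fell between 1 h and 6 h, where 59.6% of genes changed, 30.9% upwards and 28.7% downwards, though the fall of Arnt2 did not pass without KCl 6 h library B (-0.16, adjusted p = 0.132). Arnt2 and Npas3 rose from 6 h to 10 h of KCl, where 22.5% of genes changed, 12.9% upwards and 9.66% downwards, and neither passed without KCl 6 h library B (adjusted p = 0.61 and 0.332) or KCl 10 h library A (adjusted p = 0.272 and 0.393). The rise of Npas3 also did not pass with DESeq2 (adjusted p = 0.1459) or with limma without the filter on low values (adjusted p = 0.1031). Neither the 5 genes nor any other gene passed between control times (0% called by limma).

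Levels were compared between genes only per kb of exon, as normalised counts divided by the summed length of all annotated exons of a gene. In controls the order was Arnt2 at 465 ± 18.2, Npas3 at 101 ± 7.46, Arnt at 58.5 ± 2.88, Npas1 at 29.4 ± 1.90 and Npas4 at 21.1 ± 4.65 normalised counts per kb (n = 6). Only Npas1 and Npas4 overlapped as neighbours in that order, at 26.7 to 31.8 against 14.5 to 27.5. At 1 h of KCl, Npas4 led at 601 and 1271 per kb, above Arnt2 at 554 and 562, and Arnt was last at 29.9 and 33.5. Places depended on the length used, including the top place at 1 h of KCl, as given below. By the longest transcript, Arnt at 100.1 to 113 and Npas3 at 89.1 to 111 per kb overlapped in controls, as did Npas1 at 29.2 to 34.8 and Npas4 at 15.8 to 29.97, and at 1 h of KCl Arnt at 55.4 to 62.0 lay above Npas1 at 52.5 to 53.9.

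**Figure D3:**
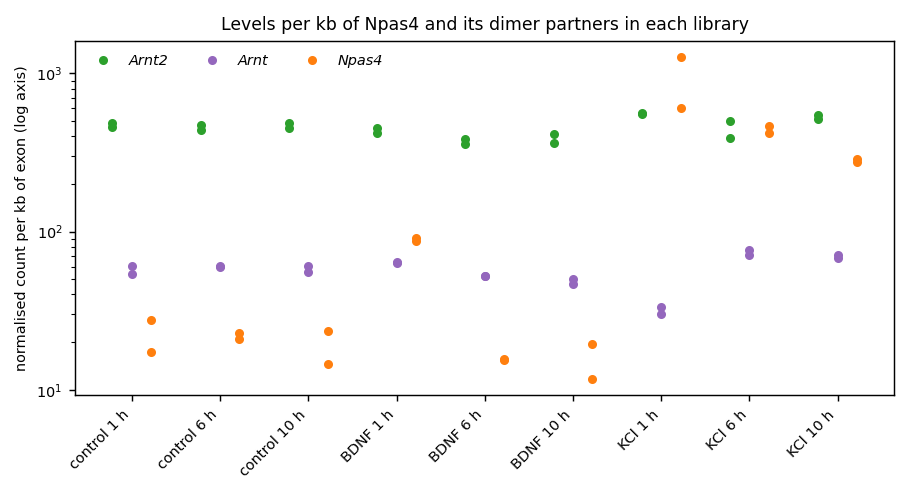
Normalised counts per kb of exon (vertical axis, log scale) of Arnt2, Arnt and Npas4 in each library of the 9 groups (horizontal axis), with a point per library. Arnt2 is highest in controls and with BDNF, and Npas4 lies above it in both libraries at 1 h of KCl.

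Npas4 thus went from far below its partner to its level or above it. The ratio of Npas4 to Arnt2 per kb was 0.0323 to 0.0567 in controls, 0.201 to 0.208 at 1 h of BDNF, 1.07 to 2.29 at 1 h of KCl, 0.927 to 1.08 at 6 h and 0.526 to 0.529 at 10 h. With the longest transcript as the length, the range at 1 h of KCl was 0.946 to 2.03, so that whether both libraries passed Arnt2 depended on the length used. Against the sum of Arnt and Arnt2 per kb, Npas4 stood at 0.0287 to 0.0510 in controls and 1.02 to 2.16 at 1 h of KCl.

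The makeup of the partner pool moved as well, since Arnt and Arnt2 moved apart at 1 h of KCl. Arnt2 was 7.31 to 8.96 times Arnt per kb in controls, 16.6 to 18.8 times at 1 h of KCl and 5.07 to 7.05 times at 6 h of KCl. Its share of the summed level of both was 88.8% ± 0.687 in controls (n = 6), 94.6% ± 0.449 at 1 h and 85.6% ± 2.87 at 6 h of KCl (n = 2). With BDNF the ratio lay between 6.60 and 8.89, overlapping or just below the controls. By the longest transcript it was lower throughout, at 4.88 to 5.97 in controls and 11.0 to 12.5 at 1 h of KCl, in the same order. Between the other pair, Npas3 was 2.75 to 3.81 times Npas1 per kb in controls and 1.83 to 2.00 times at 1 h of KCl. These are levels of RNA, and no protein was measured.

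Of 14 further genes of the family and its coactivators, 11 were tested, and Sim1, Sim2 and Arntl2 were below the filter. Of the 11, 2 rose and 1 fell at 1 h of BDNF, 2 rose and 4 fell at 6 h, and 1 rose and 4 fell at 10 h, where 21.3%, 22.1% and 21.1% of all genes rose and 19%, 21.1% and 19.5% fell. With KCl, 5 rose and 4 fell at 1 h, 3 and 3 after 6 h, and 2 and 2 after 10 h, where 26.5%, 33.4% and 29% of all genes rose and 28.2%, 33.1% and 28.2% fell. The list's median log2 fold change stayed between -0.14 and 0.10 in the 6 comparisons, beside medians of all genes within 0.01 of 0. Ahr, the dioxin receptor and another partner of Arnt, fell by 1.62 on the log2 scale at 1 h of KCl (limma, adjusted p = 1.759e-08), from 158 ± 21.0 normalised counts in controls (n = 6) to 51.9 ± 17.4 (n = 2), and it was back at 153 by 6 h. Its dip came at the same time as that of Arnt.

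Npas2, a clock gene, rose by 1.23 at 6 h of BDNF and by 0.56, 1.39 and 1.43 at 1, 6 and 10 h of KCl on the log2 scale (limma, adjusted p = 6.782e-05, 0.02651, 4.683e-06 and 5.859e-06). Its relative Clock rose by 0.61 at 1 h of KCl (limma, adjusted p = 8.969e-07), and their partner Arntl (Bmal1) by 0.37 at 6 h of BDNF and 0.34 at 6 h of KCl (limma, adjusted p = 0.00407 and 0.003748). Hif3a was lower in 5 of the 6 comparisons, and Hif1a, the hypoxia sensor that pairs with Arnt, fell by 0.26 at 1 h of KCl (limma, adjusted p = 0.006296). Ncoa1, a coactivator, fell by 0.50 at 6 h of BDNF and rose by 0.43 at 1 h of KCl (limma, adjusted p = 2.211e-05 and 6.613e-05).

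Of 6 genes known as Npas4 targets, 4 rose and none fell at 1 h of BDNF, 4 rose and 1 fell at 6 h, and 4 rose and none fell at 10 h. Of all genes, 21.3%, 22.1% and 21.1% rose and 19%, 21.1% and 19.5% fell at these times. With KCl 2 rose at 1 h, all 6 at 6 h and 5 at 10 h, and none fell. There 26.5%, 33.4% and 29% of all genes rose and 28.2%, 33.1% and 28.2% fell. The median log2 fold change of the 6 was 0.96, 0.83 and 0.78 with BDNF and 0.17, 1.22 and 0.82 with KCl. Bdnf was at 58.7 ± 10.3 normalised counts in controls (n = 6), 165 ± 9.60 at 1 h of BDNF, and 488 ± 187, 1713 ± 12.4 and 1433 ± 162 at 1, 6 and 10 h of KCl (n = 2). It was highest at 6 h of KCl, at 4.86 on the log2 scale (limma, adjusted p = 4.077e-13), while Npas4 was highest at 1 h.

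Nptx2, a secreted pentraxin of synapses, took another order. It was at 198 ± 16.3 normalised counts in controls (n = 6), and at 1 h it was 1785 and 1900 with BDNF and 171 and 267 with KCl, where Npas4 was far higher with KCl than with BDNF. By 6 h of KCl it was at 1050.2 ± 190.2 (n = 2), a log2 fold change of 2.39 (limma, adjusted p = 4.931e-12). Plk2, a kinase, rose in all 6 comparisons, by 1.54 at 1 h of BDNF and 0.83 at 1 h of KCl (limma, adjusted p = 1.447e-12 and 2.23e-08).

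Syt10, a synaptotagmin, rose by 1.91 at 6 h of BDNF and 0.60 at 6 h of KCl (limma, adjusted p = 1.553e-05 and 0.07044), and at 6 h of BDNF Npas4 was within its controls. Frmpd3 went down by -0.67 at 6 h of BDNF and up by 1.58 at 6 h of KCl on the log2 scale (limma, adjusted p = 0.09604 and 0.0001404). Mdm2, a ubiquitin ligase, rose by 0.20 at 1 h of BDNF and 0.23 at 6 h of KCl (limma, adjusted p = 0.05083 and 0.01546). Which of these changes depend on Npas4 was not tested.

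**Figure D4:**
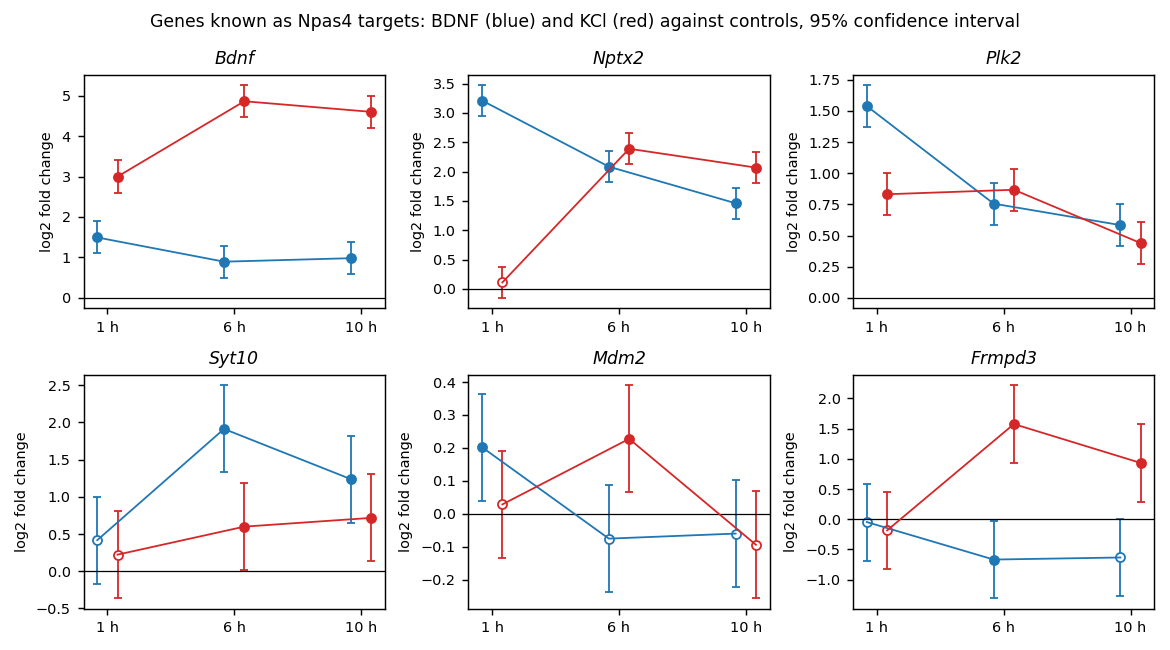
Log2 fold changes against the 6 controls (vertical axes, of different range) of 6 genes known as Npas4 targets at 1, 6 and 10 h of BDNF (blue) and KCl (red), with 95% confidence intervals as bars, filled where called and open where not. Bdnf peaks at 6 h of KCl (4.86), and Nptx2 peaks at 1 h of BDNF (3.21) and is at 0.11 at 1 h of KCl.

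The tested genes most like Npas4 over the 9 group means, by Pearson's r of log2(value + 1), were Mafk (0.997), Nfil3 (0.996), Slc38a2 (0.992), Gm4217 (0.99) and Maged1 (0.989), and 282 genes were above 0.9. Nfil3, a bZIP transcription factor, was at 371 to 439 normalised counts in controls, 855 and 894.5 at 1 h of BDNF and 3010.4 and 2200.5 at 1 h of KCl. Mafk, a small Maf protein, moved less, from 155 to 239 in controls to 364 and 384 at 1 h of KCl, since r follows the shape of a pattern and not its size. These 9 points are group means that share library preparation and scaling, and KCl sets most of the spread.

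For Arnt the closest patterns were those of Stk38l, Atp6v0e and Rnf185 (r = 0.978 each, with 131 genes above 0.9), and for Arnt2 those of Csgalnact1 (0.975), Frmd4a (0.972) and Ppfia2 (0.97, with 86 above 0.9). For Npas1 they were Amh (0.996), Hnrnpl (0.978) and Syt13 (0.975, with 76 above 0.9), and for Npas3 Tst (0.99), Igdcc4 (0.989) and Spef2 (0.988, with 552 above 0.9). Among the 5 genes themselves, Arnt and Npas1 were opposed (r = -0.819, Spearman's rho -0.7) and Arnt2 and Npas4 were alike to a lesser degree (r = 0.665, rho 0.617), over the same 9 group means.

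Open chromatin was measured at 58177 peaks, of which 46 lay within 10 kb of the 5 genes: 3 at Npas4, 1 at Arnt, 17 at Arnt2, 4 at Npas1 and 21 at Npas3. Of these, 45 passed the filter and were tested with edgeR. With BDNF, 5 were gained and 1 closed at 1 h, 4 were gained at 6 h, and 3 were gained and 1 closed at 10 h, where 17.3%, 10.6% and 9.36% of all 56383 tested peaks were called. Of all peaks, 12.5%, 8.88% and 7.46% were gained with BDNF at 1, 6 and 10 h, and 4.78%, 1.75% and 1.9% closed. With KCl 2 were gained and 2 closed at 1 h, and 2 were gained and 1 closed at 6 h and at 10 h, where 8.34%, 7.49% and 7.87% of all peaks were called. The shares gained with KCl were 5.29%, 5.44% and 5.91%, and those closed were 3.05%, 2.06% and 1.96%. Compared directly, 4, 2 and 1 of the 45 peaks differed between BDNF and KCl at 1, 6 and 10 h, where 14.9%, 3.63% and 1.99% of all peaks did. The higher side, with BDNF above KCl, took 9.3%, 2.25% and 1.16% of all peaks, and the lower side 5.55%, 1.37% and 0.83%. What follows gives single peaks, in counts scaled by the LOESS offsets.

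The peak 2.77 kb upstream of Npas4, chr19:4992925-4993245, was gained with KCl at all 3 times. It held 19.0 to 32.2 scaled counts in controls, and with KCl 60.6 and 53.2 at 1 h, 52.1 and 47.0 after 6 h, and 52.5 and 55.0 after 10 h, all above the controls. The log2 fold changes were 1.20 ± 0.27, 1.03 ± 0.30 and 1.12 ± 0.28 (SE; edgeR, adjusted p = 0.002256, 0.02559 and 0.005459). Against the 6 h controls alone, the value at 6 h did not pass (0.93 by edgeR, adjusted p = 0.1919). With 1 library left out, the call at 6 h was lost without library A (0.93, adjusted p = 0.351) and that at 10 h without library B (1.09, adjusted p = 0.104). The peak lies in a gene model of uncertain kind, AC124502.5, and holds 2 of the AP-1 sites and 1 of the CRE cores shown above.

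With BDNF the same peak held 42.4 and 34.2 scaled counts at 1 h, 43.0 and 42.2 after 6 h, and 8.3 and 20.8 after 10 h. Those at 1 h and 6 h also lay above all controls. The log2 fold change was 0.63 at 1 h and -0.69 at 10 h, neither called, and 0.79 at 6 h (edgeR, adjusted p = 0.06603). The call at 6 h was lost without either library of that group (0.78 and 0.81). It was also lost against the 6 h controls alone (0.69 by edgeR, adjusted p = 0.3548). At 10 h it was lower with BDNF than with KCl by a log2 difference of -1.81 (edgeR, adjusted p = 0.01024), but not called without BDNF library A (-1.36, adjusted p = 0.235) or KCl library B (-1.78, adjusted p = 0.105). The direct test called no difference between BDNF and KCl at this peak at 1 h or 6 h. Npas4 RNA at 10 h was 80.2 and 48.4 normalised counts with BDNF and 1182 and 1132 with KCl.

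**Figure D5:**
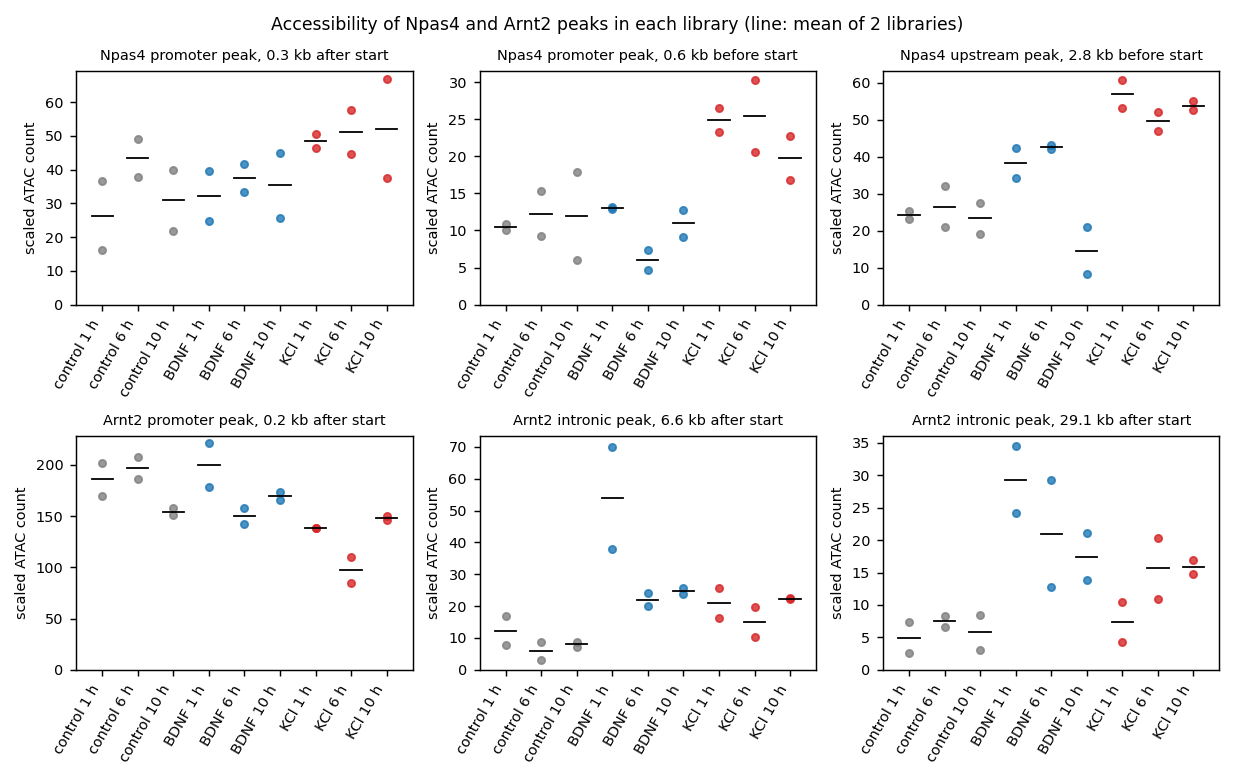
Scaled ATAC counts (vertical axis) in each library of the 9 groups (horizontal axis) at peaks of Npas4 and Arnt2, with 1 panel per peak, a bar at the group mean, and controls in grey, BDNF in blue and KCl in red. The peak upstream of Npas4 is high in all 6 KCl libraries (47.0 to 60.6), and the Arnt2 intron peak nearest the start is highest at 1 h of BDNF (70.1 and 38.0).

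The 2 peaks at the Npas4 promoter were not called against controls with the LOESS offsets. At chr19:4989810-4990300, which covers the 30 bases shown above, controls held 16.2 to 49.0 scaled counts and KCl libraries 37.4 to 66.8, overlapping, with log2 fold changes of 0.50, 0.63 and 0.60. At chr19:4990829-4991073, 0.635 kb before the start, controls held 6.0 to 17.9 and KCl libraries 16.8 to 30.3, with log2 fold changes of 1.08, 1.04 and 0.75 (edgeR, adjusted p = 0.1031, 0.193 and 0.3795). Those at 1 h and 6 h passed under TMM (adjusted p = 0.066 and 0.0613), DESeq2 size factors (adjusted p = 0.0695 and 0.0713) and the DESeq2 test (adjusted p = 0.0829 and 0.0711), and that at 1 h also without control 6 h B, control 10 h B or either BDNF 10 h library (adjusted p up to 0.0978). That peak holds a CArG box, the binding site of SRF, as did 1.17% of the peaks at least as long, in a central window of its length. It was lower with BDNF (7.4 and 4.7) than with KCl (20.6 and 30.3) at 6 h by a log2 difference of -2.03 (edgeR, adjusted p = 0.04899), a call lost without any 1 of these 4 libraries (adjusted p up to 0.331). Its counts are low and its depth limits what can be seen there.

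Arnt had a single peak, over its promoter at chr3:95434054-95434854, and it was not called in any comparison. It held 119 to 156 scaled counts in controls and 119 to 140 with KCl, where Arnt RNA first fell and then rose. With BDNF it held 116 and 127 at 1 h, 107 and 136 after 6 h, and 87.4 and 111 after 10 h, the last pair below all controls (log2 fold change -0.46; edgeR, adjusted p = 0.103). At Arnt2, the promoter peak chr7:84409315-84410619 closed at 1 h and 6 h of KCl. It held 151 to 208 scaled counts in controls. With KCl it held 138 and 138 at 1 h, 110 and 85.0 after 6 h, and 150 and 146 after 10 h. Those at 1 h and 6 h lay below all controls. At 10 h the higher KCl library, at 150.4, was just under the lowest control, a 10 h library at 150.6. The log2 fold changes were -0.38, -0.81 and -0.28. The change at 6 h was the clearest (edgeR, adjusted p = 0.0003478). That at 10 h was not called. With BDNF the peak held 178 to 221 at 1 h, 142 to 158 after 6 h and 166 to 174 after 10 h, and was not called. Against the 1 h controls alone, the value at 1 h of KCl did not pass (-0.42 by edgeR, adjusted p = 0.157). The closing at 1 h (adjusted p = 0.08562), when Arnt2 RNA was higher, was lost without either KCl library (adjusted p up to 0.379) and without control libraries 1 h A, 6 h A or 6 h B (adjusted p up to 0.16).

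In the introns of Arnt2, peaks were gained with BDNF and, in part, with KCl. The peak 6.58 kb into the gene, chr7:84403467-84403718, held 3.1 to 16.8 scaled counts in controls, 70.1 and 38.0 at 1 h of BDNF, 24.1 and 19.9 at 6 h, and 25.6 and 23.8 at 10 h. It held 16.3 and 25.8 at 1 h of KCl, 19.7 and 10.2 at 6 h, and 22.5 and 22.1 at 10 h. BDNF gave log2 fold changes of 2.63 ± 0.36, 1.34 and 1.51 and KCl gave 1.31, 0.94 and 1.37, all called but that at 6 h of KCl (edgeR, adjusted p = 1.416e-09, 0.01705, 0.01392, 0.0317 and 0.03028 for those called). Of these, only the call at 1 h of BDNF was kept when each library was left out in turn. Against controls of the same time, the peak was not called at 10 h of BDNF or 1 h of KCl (1.63 and 0.86 by edgeR, adjusted p = 0.1001 and 0.4051). At 1 h it was higher with BDNF than with KCl by 1.32 on the log2 scale (edgeR, adjusted p = 0.02922), lost without BDNF library A (0.82, adjusted p = 0.448) or KCl library A (1.05, adjusted p = 0.228). Arnt2 RNA went the other way at 1 h, with 3239 and 3484 normalised counts with BDNF and 4263 and 4318 with KCl.

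The peak 29.1 kb into Arnt2, chr7:84380922-84381144, held 2.6 to 8.5 scaled counts in controls and 34.5 and 24.1 at 1 h, 29.2 and 12.7 after 6 h, and 21.1 and 13.8 after 10 h of BDNF. All 6 BDNF libraries lay above the controls, with log2 fold changes of 2.19 ± 0.44, 1.68 and 1.44 (edgeR, adjusted p = 3.939e-05, 0.006608 and 0.07547), of which the second did not pass once library A of that group was left out (0.90, adjusted p = 0.639) and the last was lost under 7 of the libraries left out in turn. Against controls of the same time, the values at 6 h and 10 h of BDNF did not pass (1.43 and 1.47 by edgeR, adjusted p = 0.1837 and 0.2858). With KCl the peak held 4.3 and 10.4 at 1 h and was not called. Its KCl libraries held 11.0 and 20.3 after 6 h and 14.8 and 17.0 after 10 h, all above the controls, with log2 fold changes of 1.15 and 1.32 that did not pass (edgeR, adjusted p = 0.243 and 0.1042). The 2 stimuli did not pass the direct test at those times (adjusted p = 0.736 and 0.9617). At 1 h they differed by 1.91 (edgeR, adjusted p = 0.01223), lost without BDNF library A (adjusted p = 0.193) or KCl library A (adjusted p = 0.153). The peak chr7:84390005-84390174 was gained at 6 h with both, since the BDNF libraries held 25.1 and 17.5 and the KCl libraries 22.3 and 13.0 against 4.4 to 9.5 in controls (log2 fold changes 1.63 and 1.48; edgeR, adjusted p = 0.007797 and 0.0617), and both calls were lost without library A of their group (adjusted p = 0.362 and 0.688). Against the 6 h controls alone, its value at 6 h of KCl did not pass (1.61 by edgeR, adjusted p = 0.2015). These 3 peaks are the ones whose TGANTCA matches are shown above, and the match in chr7:84380922-84381144 has A as N.

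A peak at an internal start of Arnt2, chr7:84372415-84372825, was gained at 1 h of BDNF by 0.82 on the log2 scale (edgeR, adjusted p = 0.04265), a call lost without BDNF library B (0.56, adjusted p = 0.53) or control 1 h library B (0.71, adjusted p = 0.109). The remaining calls at Arnt2 fell on 2 intron peaks that were looked at after their values were seen, chr7:84285975-84286122, gained at 1 h of BDNF (1.50, adjusted p = 0.01491), and chr7:84335946-84336202, closed at 10 h of BDNF and at 1 h and 10 h of KCl (-2.13, -1.55 and -1.89). Of the 5 Arnt2 peaks gained in any of the 6 comparisons, 4 held TGANTCA in their central 300 bases, and of the other 12, 1 did. This count describes 17 peaks of 1 gene and was made after the gains were known. In chr7:84372415-84372825 and chr7:84380922-84381144 the only match has A or T as N, not the C or G of the usual AP-1 site.

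At Npas1 no peak was called and none covered its promoter. At Npas3 the promoter peaks chr12:53248127-53248658 and chr12:53252328-53253715 were not called, although its RNA fell with both stimuli. Of its intron peaks, chr12:53587568-53588266 was gained at 1 h of BDNF, from 51.2 to 81.0 scaled counts in controls to 116 and 118 (log2 fold change 0.81; edgeR, adjusted p = 0.0004495). Its KCl libraries held 81.2 to 107, also above all controls, with log2 fold changes of 0.50, 0.42 and 0.52 that did not pass (edgeR, adjusted p = 0.1076, 0.3006 and 0.125). The peak chr12:53405898-53406172 was gained at 10 h of BDNF by 1.49 (edgeR, adjusted p = 0.02646) and lost that call without either library of the group (adjusted p up to 0.212). Against the 10 h controls alone, that gain did not pass (1.375 by edgeR, adjusted p = 0.2503). At 1 h of KCl the peak held 19.0 and 15.1 scaled counts, above the controls at 7.3 to 9.7, and was not called (0.95; edgeR, adjusted p = 0.218). The peak chr12:53835176-53835358 closed at 1 h of BDNF, at -1.45 (edgeR, adjusted p = 0.08741), a call lost under TMM scaling (-0.92, adjusted p = 0.355) and under 9 of the libraries left out in turn. None of the 20 tested Npas3 peaks held TGANTCA in its central 300 bases.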

How the data were processed

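RNA-seq and ATAC-seq were measured in 18 libraries each, grouped by the sample labels. Per the methods of the study, the authors used TopHat2 with Gencode M16 on the mm10 build for RNA and divided gene counts by DESeq2 size factors; how strand was used in counting is not given in the sources used here. These deposited RNA values, never negative, are a signal, and 100% of them came out as whole reads within 0.01, so whole reads were recovered. For ATAC the authors used bowtie2, took peaks from MACS2 runs on each sample and counted over consensus peaks with DiffBind. The deposited ATAC values are raw counts per peak. A deposited table of the authors' own peak comparisons was not used.

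Symbols came from the authors' gene table. RNA was tested with limma (3.58.1, R 4.3.3) on log2(value + 1) over 16209 genes with a mean of at least 10, and fold changes are on that scale, which understates those of low genes. ATAC was tested with edgeR's quasi-likelihood test (4.0.16) with LOESS offsets (span 0.3) over 56383 peaks with a mean of at least 10. All 6 controls were pooled, as the study did, p-values were adjusted by Benjamini-Hochberg over all features, and those below 0.1 were called, two-sided. The scripts' fits were checked on simulated data. Alternatives were other pseudocounts, filters, scalings and tools (DESeq2 1.42.0), controls of the same time, a stricter threshold, a replicate block and leaving out each library. The direct ATAC comparison of BDNF with KCl was added after the data were seen. Replicates differed by more than counting error (chi-square per degree of freedom 2.33 to 9.77 for RNA but 36.4 at 6 h of KCl, and 2.04 to 2.58 for ATAC), and none were identical.

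The 5 genes, the gene lists and the tests were chosen with earlier results of these data known. A fixed list of corepressor genes is not reported here. Named outside the 5 were the genes of fixed lists, the genes with the highest r to each member (5 for Npas4, 3 for each other), all Npas4 peaks, promoter peaks and, per member, the 3 other peaks of lowest p. Gene models came from GENCODE M21 and sequences from RefSeq GRCm38.p6, whose chromosomes match mm10. RNA depth was 8508452 to 36699187 reads and ATAC depth 1241829 to 6236439 reads in peaks. ATAC columns carry no replicate mark, so A and B only name them there.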

Additional observations from a re-analysis of the deposited data

Results flagged for a closer look

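The responses of the 5 genes to BDNF and to KCl differed by the direct test in 13 of 15 comparisons, each given here as BDNF minus KCl on the log2 scale (limma). Of all tested genes, 42.8%, 57.3% and 45% were called at 1, 6 and 10 h. Npas4 was at -3.288, -4.798 and -4.191 at 1, 6 and 10 h. Arnt was at 1.007, -0.4889 and -0.5211, and is the gene of the 5 whose difference turned over between 1 h and 6 h with both sides called. Arnt2 was at -0.3527, -0.2438 and -0.4494. Npas1 was at -0.3636 at 1 h and 0.3994 at 10 h. Npas3 was at 0.4697 at 6 h and 0.2623 at 10 h. The calls of Arnt2 at 6 h, Npas1 at 1 h and 10 h and Npas3 at 10 h were lost when single libraries were left out. Those of Npas1 were also lost with DESeq2 on all libraries.

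For chromatin, 5 named peaks of Npas4 and Arnt2 differed directly in at least 1 time (edgeR). Of all tested peaks, 14.9%, 3.63% and 1.99% differed at 1, 6 and 10 h. At Npas4 the promoter peak chr19:4990829-4991073 was at -2.026 at 6 h and the upstream peak chr19:4992925-4993245 at -1.811 at 10 h. At Arnt2 the intron peaks chr7:84380922-84381144 and chr7:84403467-84403718 were at 1.906 and 1.318 at 1 h. Those intron peaks were named for their low p against controls in these same data. The promoter peak chr7:84409315-84410619 was at 0.5276 at 1 h and 0.5623 at 6 h. Each of these calls at Npas4 and Arnt2 was lost when single libraries were left out. No control library of the 5 genes or of these peaks stood apart by Dixon's test, which was run on the 6 controls. No explanation was weighed.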

How the results depend on the processing

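With 2 libraries a group, calls near the threshold depended on single libraries, and low peak counts limited what ATAC could show; the cause was not tested in any case below. Where other settings were tried on RNA, 598 values kept direction and side of the threshold, 29 lost it, 1 gained it and 2 changed sign. For ATAC these counts were 226, 32, 6 and 5. The letters A and B did not pair the RNA libraries (36 pairs of groups, r of deviations from -0.315 to 0.418, median 0.0649, 13 over 0.1), and a replicate block left the number of members called as it was in each comparison, such as 4 at 1 h and 3 at 6 h of KCl. No paired analysis was possible for ATAC because its columns carry no replicate mark.

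The counts of genes and peaks below are given without the shares of all genes or peaks called under the same setting. They therefore cannot tell a change in these members from a change over all features. The number of the 5 genes called at 1 h of BDNF was 1 with DESeq2, 1 against controls of the same time and 1 at an adjusted p below 0.01, and 1 to 3 with a library left out. At 10 h, BDNF against KCl, it was 3 at the stricter threshold and 3 to 5 with a library left out. Leaving out each library gave 1 to 4 genes between 1 h and 6 h of BDNF, 3 to 5 between 1 h and 6 h of KCl and 0 to 3 between 6 h and 10 h of KCl. For Npas4 at 10 h of BDNF the range was -0.80 to -0.088, called (-0.45) without either KCl 1 h library.

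The number of peaks called was 3 at the stricter threshold at 1 h of BDNF. At 6 h of BDNF it was 2 at that threshold and 2 against controls of the same time, and at 10 h 0 under both. At 1 h of KCl it was 1 at the stricter threshold and 2 against controls of the same time, and at 6 h 1 under both and 5 with TMM. At 10 h of KCl it was 1 at the stricter threshold, 5 with TMM, 6 with DESeq2 size factors and 6 with the DESeq2 test. With a library left out it was 3 to 7, 0 to 5 and 0 to 6 at 1, 6 and 10 h of BDNF and 1 to 6, 2 to 3 and 0 to 4 with KCl. For the direct comparison of BDNF with KCl it was 0 to 5, 0 to 2 and 0 to 1, and 0 at the stricter threshold at all 3 times.

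Signs changed only for values that were not called. With a library left out, Npas1 at 6 h of BDNF ran from -0.0038 to 0.049 and Arnt2 at 6 h of KCl from -0.26 to 0.098. From 6 h to 10 h of BDNF, Arnt2 ran from -0.033 to 0.16 and Npas4 from -0.41 to 0.31. Between controls at 6 h and 1 h, Npas1 ran from -0.20 to 0.034, Arnt from -0.015 to 0.15, Arnt2 from -0.094 to 0.0061, Npas3 from -0.056 to 0.21 and Npas4 from -0.33 to 0.34. There Npas4 was at -0.13 with edgeR and -0.049 with DESeq2. Between controls at 10 h and 1 h, Arnt ran from -0.071 to 0.098, Arnt2 from -0.066 to 0.041, Npas3 from -0.00092 to 0.26 and Npas4 from -0.58 to 0.11. The Npas4 peak chr19:4989810-4990300 ran from -0.44 to 0.23, -0.032 to 0.29 and -0.40 to 0.40 at 1, 6 and 10 h of BDNF, and was at 0.22 at 1 h and -0.20 at 6 h against controls of the same time. The peak chr19:4990829-4991073 at 10 h of BDNF ran from -0.36 to 0.12, and was at 0.17 with TMM, 0.13 with DESeq2 size factors and 0.13 with the DESeq2 test.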
